A study of Oryza sativa with 12 samples.

Results

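CML15, CML27 and CML31 are 3 rice genes for calmodulin-like proteins, and their transcripts were followed through 4 groups of embryonic axes. They were picked from a name table by symbol or synonym, and each gene was read from the probe set with the highest mean over the 12 arrays. They make up 3 of the 29 calmodulin and calmodulin-like genes of that table. Of these 29 genes, 26 are among the 17905 genes paired with a probe set on this array. The 3 genes were proposed with results of these same arrays known: CML27 had been named among rises at 40 °C in the 0H groups and CML31 among rises at 40 °C in the 4H groups. Their values are therefore a description, no p-value is given for them, and tests are given only for genes that did not enter the choice.

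Calmodulin is a small protein that binds calcium through EF-hand motifs and then switches other proteins on or off. Calmodulin-like proteins (CML) carry the same kind of motif, differ from calmodulin in sequence, and are regarded in plants as sensors that pass on calcium signals. Calcium signals are known to take part in plant responses to heat, drought and low oxygen and in early seed germination. What CML15, CML27 or CML31 binds in the rice embryo is not stated in the sources used here.

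The axes came from mature seed of the cultivar Nipponbare and were hybridised as biotin-labelled, amplified RNA to Affymetrix Rice Genome Arrays. All seed was equilibrated at 25 °C and 85% relative humidity for 3 days. It was then held at 85% relative humidity at 40 °C, a controlled deterioration treatment that mimics ageing, or at 25 °C as the control, for 14 days by the protocol and 15 days by the description, and dried for 3 days at 32%. Each array title ends its group name in 4H or 0H, a code that no label explains, and the groups are 40 °C 4H, 25 °C 4H, 40 °C 0H and 25 °C 0H with 3 numbered replicates each. No label says whether replicates came from separate seed lots, so SDs and p-values cover the spread among these arrays, possibly a technical one.

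The signal is a log2 value per probe set, so a difference of 1 is a doubling. Between 25.5% and 27.7% of probe sets lay above log2 4 in the 12 arrays, a limit set for the filter that no background reading fixed. The number of arrays limits the precision. Log2 3′ minus 5′ signals of the Gapdh control, a measure of RNA integrity and labelling, were 3.40 to 3.98 at 40 °C 0H against 2.06 to 2.40 at 25 °C 0H, and 2.56 to 2.95 at 40 °C 4H against 2.26 to 2.44 at 25 °C 4H. The same measure for Actin was 3.20 to 3.48 at 40 °C 0H against 2.371 to 2.496 at 25 °C 0H, and 2.85 to 3.12 at 40 °C 4H against 2.82 to 3.14 at 25 °C 4H. The mean signal of the poly-A control probe sets was log2 4.94 to 8.93 at 40 °C 0H against 3.78 to 5.08 at 25 °C 0H. At 4H it was 4.30 to 6.31 after 40 °C against 2.60 to 4.06 after 25 °C. The summed signal of 10 endosperm genes was log2 11.4 to 11.5 at 40 °C 0H against 9.67 to 10.9 at 25 °C 0H, and 10.73 to 11.04 at 40 °C 4H against 10.1 to 11.4 at 25 °C 4H. The 4 alpha-amylase genes read as aleurone and scutellum markers summed to log2 9.12 to 9.42 at 40 °C 4H against 9.87 to 10.5 at 25 °C 4H. The summed signal of the embryo genes Emp1 and VP1 stayed between log2 12.4 and 12.6 in all arrays. Emp1, with group means of 12.2 to 12.5, carried that sum beside VP1, with 7.82 to 9.89. At 4H relative to 0H VP1 rose by 1.85 at 40 °C and 1.65 at 25 °C, while Emp1 fell by 0.30 and 0.27. After 40 °C at 4H VP1 was 0.42 higher and Emp1 differed by −0.04. Among the endosperm genes 7 of the 10 lay above log2 4 in all 12 arrays, SSII-3 did in 3 arrays, and GluB4 and GLUA3 did in none. In such tissue RNA, more cells of a kind and more transcript per cell cannot be told apart.

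CML15 was high in 1 of the 4 groups. Its signal in the 40 °C 4H arrays was 10.2, 9.90 and 9.78, against 7.89, 7.78 and 8.26 in the 25 °C 4H arrays. In the 40 °C 0H arrays it read 7.73, 7.73 and 7.90, against 7.64, 7.76 and 7.52 in the 25 °C 0H arrays. Every 40 °C 4H array lay above every other array, while the 25 °C 4H and 40 °C 0H arrays overlapped, as did the 40 °C 0H and 25 °C 0H arrays. CML15 was the 1 gene of the 3 that lay above log2 4 in all 12 arrays, so its place in the tests did not hang on the group where it was high.

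CML27 stepped up with both factors. It read 7.01, 7.01 and 6.75 in the 40 °C 4H arrays, against 6.11, 6.12 and 6.15 in the 25 °C 4H arrays. At 0H it read 4.52, 3.92 and 4.34 after 40 °C, against 3.17, 3.58 and 3.56 after 25 °C. No group overlapped another, and the order from the top was 40 °C 4H, 25 °C 4H, 40 °C 0H and 25 °C 0H. All 25 °C 0H arrays and replicate 2 of the 40 °C 0H group lay below log2 4, and CML27 passed the filter with 8 arrays, mainly the 4H ones. A second probe set of CML27 read 1.33, 1.22 and 1.33 at 40 °C 4H and at most 1.21 in any other array, so it did not pass the filter. Its highest and lowest group means fell in the same groups, and no level is read from it.

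CML31 covered the widest range. Its signal was 8.95, 8.78 and 8.51 in the 40 °C 4H arrays, against 5.22, 5.21 and 5.67 in the 25 °C 4H arrays. At 0H it stayed below log2 4 in 6 of 6 arrays, with 1.88, 1.95 and 1.73 after 40 °C against 2.75, 1.94 and 2.27 after 25 °C. The 40 °C 4H arrays lay above the 25 °C 4H arrays, these lay above both 0H groups, and the 0H groups overlapped each other. CML31 passed the filter only through its 6 arrays at 4H, so its place in the tests hung on the groups where it was high.

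**Figure D1:**
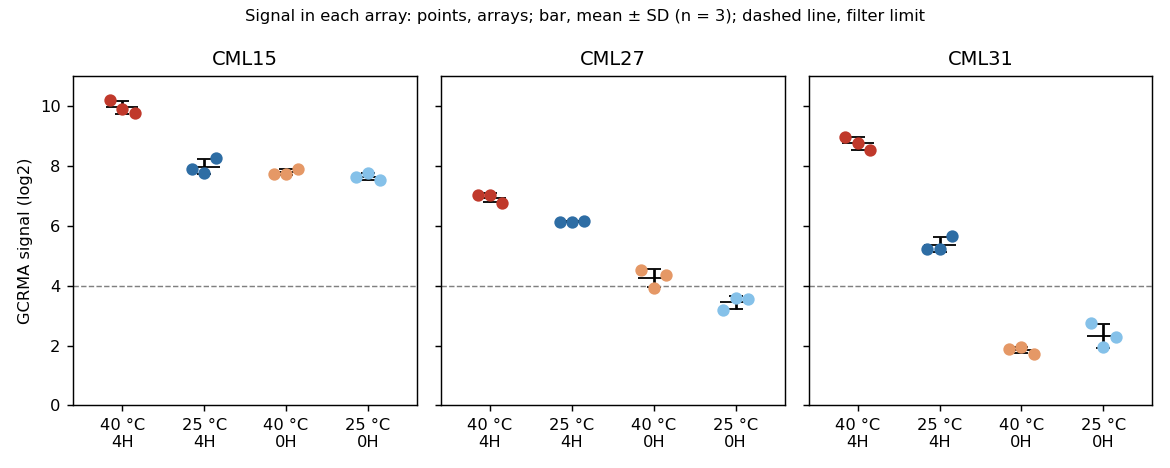
GCRMA signal (log2) of CML15, CML27 and CML31 in each of the 12 arrays, by group; points are arrays, the bars mean ± SD (n = 3) and the dashed line the filter limit of log2 4. CML15 stands out in the 40 °C 4H arrays (9.78 to 10.2), CML27 rises in 4 steps, and CML31 lies below the line in all 6 arrays at 0H.

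The comparison of 40 °C with 25 °C asks what controlled deterioration changed within each of the 4H and 0H groups. At 4H all 3 genes were higher after 40 °C, with no overlap between the temperatures, as in 76.3% of the 17650 probe sets that passed the filter in either direction and 32.0% in the upward one. CML31 averaged 8.75 ± 0.22 at 40 °C and 5.37 ± 0.26 at 25 °C (SD, n = 3), a log2 difference of 3.38 (SE 0.20) or 10.4-fold. CML15 averaged 9.96 ± 0.21 at 40 °C and 7.98 ± 0.25 at 25 °C, 1.98 higher (SE 0.13; 3.95-fold). CML27 averaged 6.93 ± 0.15 at 40 °C and 6.13 ± 0.02 at 25 °C, 0.80 higher (SE 0.16; 1.74-fold). By the size of the rise CML31 was number 31, CML15 number 518 and CML27 number 2917 among those probe sets. The median difference over all of them was −0.16.

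At 0H 1 of the 3 genes separated the temperatures, where 37.1% of the probe sets did so in either direction and 16.0% upward. CML27 averaged 4.26 ± 0.31 at 40 °C and 3.44 ± 0.23 at 25 °C, a log2 difference of 0.82 (SE 0.16). Since all 25 °C arrays lay under log2 4, the difference was at least 0.26 against that limit. That lower bound was 0.13 without replicate 1 of the 40 °C 0H group and 0.43 without its replicate 2. CML15 averaged 7.79 ± 0.10 at 40 °C and 7.64 ± 0.12 at 25 °C, a difference of 0.15 (SE 0.13), with overlapping arrays. Leaving out replicate 3 of the 25 °C 0H group gave CML15 a difference of 0.09. CML31 averaged 1.85 at 40 °C and 2.32 at 25 °C, both under log2 4, so no size is given. The 3′ to 5′ gaps of Gapdh and Actin and the endosperm sum, given above, separated the 0H groups as CML27 did. Within the 25 °C 0H arrays, replicates 1 to 3 had endosperm sums of 9.67, 9.97 and 10.9 and CML27 signals of 3.17, 3.58 and 3.56. At 4H, where all 3 genes separated the temperatures, the endosperm sums and the Actin values overlapped. The Gapdh and poly-A control values were higher and the amylase sums lower after 40 °C without overlap. Within the sums the genes differed: 1 of the 8 endosperm genes tested rose at 4H and 3 fell, and 2 of the 4 amylase genes fell. Of all probe sets 30.5% rose and 43.5% fell there (limma, adjusted p under 0.05). The part of RNA quality, labelling and other tissues in the differences of CML15, CML27 and CML31 was not tested.

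The shift of CML27 with temperature was 0.80 at 4H and 0.82 at 0H, a difference of −0.02 (SE 0.22), or 0.51 when values under log2 4 were set to 4. That of CML15 was 1.98 at 4H and 0.15 at 0H, a difference of 1.83 (SE 0.18). That of CML31 was larger at 4H by 3.85 (SE 0.28), and by 3.38 with the same floor, since its 0H signals were all below it. In the same test of the difference 65.0% of all probe sets passed an adjusted p of 0.05 by limma, 28.1% upward.

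The comparison of 4H with 0H describes the change between the suffix groups at each temperature. All 3 genes were higher at 4H at both temperatures with no overlap, as were 41.8% of probe sets at 40 °C and 39.8% at 25 °C (89.4% and 81.9% in either direction). CML31 passed the filter only through its 6 arrays at 4H, and CML27 with 8 arrays, mainly those at 4H. Their rises were thus favoured by the filter, and only CML15 was free of this. CML31 was at least 26.9-fold higher at 4H than at 0H at 40 °C, and at least 2.58-fold at 25 °C, counted from log2 4. CML27 was 2.67 higher at 4H than at 0H at 40 °C (SE 0.16; 6.37-fold), and at 25 °C 2.69 higher (SE 0.16), which is at least 4.37-fold counted from log2 4. CML15 was 2.17 higher at 4H at 40 °C (SE 0.13; 4.50-fold) but 0.34 at 25 °C (SE 0.13; 1.26-fold). At 25 °C the lowest 4H array of CML15 (7.78) and the highest 0H array (7.76) all but touched. Without replicate 3 of the 25 °C 4H group, which read 8.26, that difference of CML15 was 0.19. These comparisons share arrays with those between the temperatures, so their values are not independent of them.

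**Figure D2:**
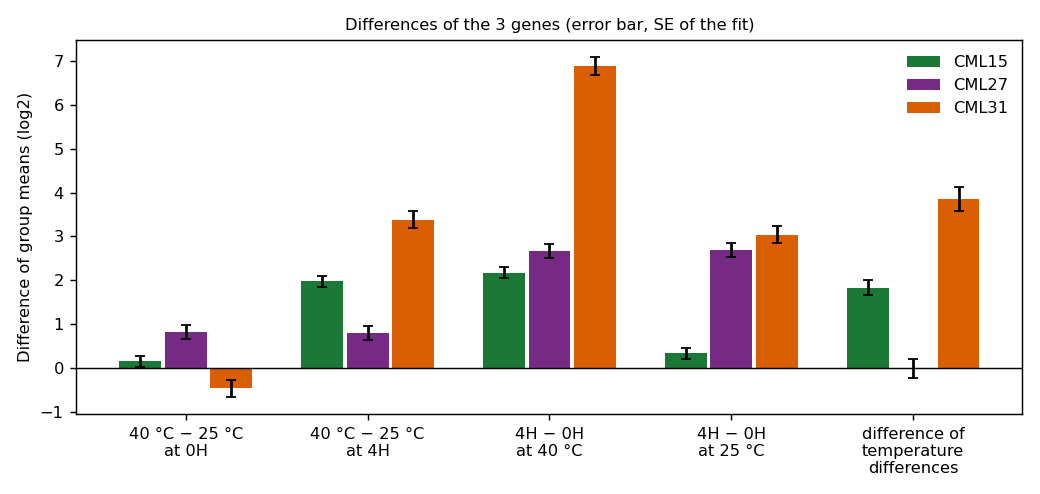
Difference of group means (log2) of CML15, CML27 and CML31 in each comparison and, at the right, the temperature difference at 4H minus that at 0H; error bars are the SE of the fit. At the right the values are 1.83 for CML15, −0.02 for CML27 and 3.85 for CML31. All values are signals as deposited, and the 25 °C 0H arrays of CML27 and all 0H arrays of CML31 lay under log2 4; set to that limit, the values at the right are 0.51 for CML27 and 3.38 for CML31.

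Among the other calmodulin and calmodulin-like genes of the name table, 14 passed the filter beside the 3 described, 9 had a probe set under it (CML1, CML3, CML9, CML11, CML17, CML24, CML28, CML29 and CML32) and CML2, CML21 and CML22 had none. At 4H 6 of these 14 rose after 40 °C, 5 fell and 3 did not pass the test, where 74.0% of all probe sets passed, 30.5% upward and 43.5% downward (limma, adjusted p under 0.05; median difference of the 14 genes 0.34, of all probe sets −0.16). Under quantile normalization, and likewise without replicate 3 of the 25 °C 4H group, all 14 passed, 9 upward and 5 downward. Without replicate 1 or replicate 2 of that group 10 passed, 5 upward and 5 downward. With the filter at log2 6, 10 of 12 passed. CML14 rose to 6.77 at 40 °C, against 4.73 at 25 °C, a difference of 2.04 (SE 0.16, adjusted p = 5.75e-08). CML10 rose by 1.67 (SE 0.18, adjusted p = 1.36e-06). CML5, CML16, CML18 and CML20 also rose, by 0.55 to 1.07, with overlapping arrays in CML5. CML13 fell by 0.85 (SE 0.07, adjusted p = 7.23e-08), read from a probe set that can match related transcripts.

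The 3 calmodulin genes themselves were all lower after 40 °C at 4H, as were 43.5% of all probe sets. CAM3 read 8.59, 8.79 and 8.79 in the 40 °C arrays against 9.69, 9.88 and 9.65 in the 25 °C arrays and fell by 1.02 (SE 0.08, adjusted p = 7.68e-08). CAM1 and CAM2, named after their values were seen, fell by 0.70 and 0.69, and CML7 fell by 0.58. The name table joins several calmodulin loci under CAM1, and transcripts of calmodulin genes are alike, so their signals may be shared.

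At 0H none of the 14 genes passed the test by limma, where 17.7% of all probe sets did, 5.99% upward and 11.7% downward (median difference 0.05, of all probe sets −0.01). CML10 and CML13 had an unadjusted p under 0.05. CML10 differed by 0.50 (SE 0.18, adjusted p = 0.0755) and CML13 by −0.17 (SE 0.07, adjusted p = 0.106). By the test of the difference between both temperature effects, 6 of the 14 genes shifted upward at 4H relative to 0H and 5 downward, against 28.1% and 36.9% of all probe sets. The difference was 1.73 for CML14 (SE 0.23, adjusted p = 1.79e-05), −1.06 for CAM3 (SE 0.12, adjusted p = 3.65e-06), −0.72 for CML7 (SE 0.13, adjusted p = 0.000203) and −0.68 for CML13 (SE 0.10, adjusted p = 3.80e-05).

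Between 4H and 0H the family moved both ways. At 40 °C 6 of the 14 genes rose and 6 fell at 4H, where 41.0% and 46.3% of all probe sets did (87.2% in all), and at 25 °C 4 rose and 6 fell, where 39.9% and 42.0% did. CML10 rose by 4.62 at 40 °C (SE 0.18, adjusted p = 6.12e-12) and by 3.45 at 25 °C (SE 0.18, adjusted p = 2.69e-10). CML5 rose by 4.59 at 40 °C (SE 0.19, adjusted p = 1.01e-11) and by 3.95 at 25 °C (SE 0.19, adjusted p = 1.02e-10). It passed the filter with 8 arrays, mainly those at 4H. CML7 rose by 2.07 at 40 °C and by 2.79 at 25 °C. CML16 fell by 2.19 at 25 °C (SE 0.10, adjusted p = 5.41e-11) and CML13 by 1.47 at 40 °C (SE 0.07, adjusted p = 3.85e-11). CML14 fell by 0.90 at 4H at 25 °C and rose by 0.84 at 40 °C; this gene was named here after its values were seen. CML10 and CML31 lie on 1 chromosome with 37 annotated genes between them, which makes CML10 the nearest family member to any of the 3 genes in the RefSeq table of the rice assembly ASM3414082v1.

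**Figure D3:**
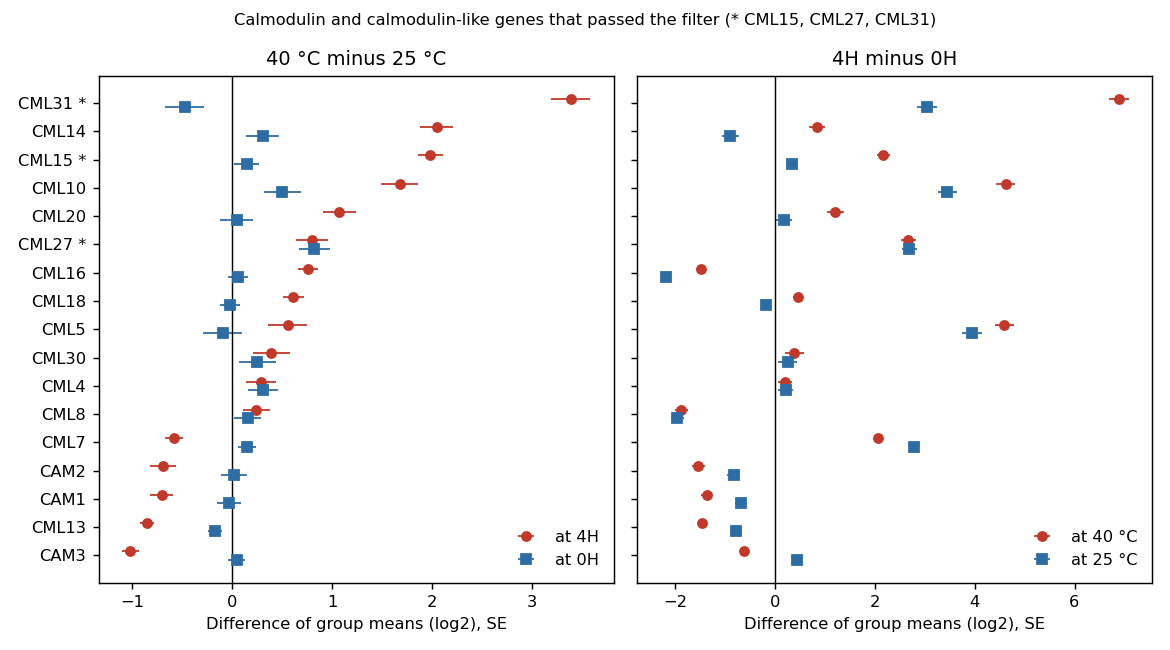
Log2 differences (± SE) of the 17 calmodulin and calmodulin-like genes that passed the filter: 40 °C minus 25 °C at 4H (circles) and 0H (squares) at the left, and 4H minus 0H at 40 °C (circles) and 25 °C (squares) at the right. At the left the squares lie between −0.17 for CML13 and 0.31 for CML14 apart from CML27 (0.82, or at least 0.26 counted from log2 4), CML10 (0.50) and CML31 (−0.47, from signals under log2 4), while the circles spread from −1.02 for CAM3 to 3.38 for CML31.

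Genes that carry calcium across membranes or read its level by other sensors were set beside the family. Calcium pumps of the ACA type expel calcium from the cytosol and are switched on by calmodulin. In the list of pumps and exchangers 8 genes were tested, of which 2 rose and 3 fell at 4H after 40 °C, where 30.5% of all probe sets rose and 43.5% fell (median −0.27, of all probe sets −0.16). ACA7 rose by 2.36 (SE 0.22, adjusted p = 2.47e-07), with 7.16 at 40 °C against 4.80 at 25 °C, and ACA5 fell by 0.67 (SE 0.08, adjusted p = 4.50e-06). The effect of temperature on ACA7 was larger at 4H than at 0H by 2.36 with values under log2 4 set to 4 (adjusted p = 3.79e-06), and by 2.52 in the signals as deposited (SE 0.31, adjusted p = 8.64e-06). ACA7 lay below log2 4 in all 0H arrays and rose at 4H by at least 3.16 at 40 °C and at least 0.80 at 25 °C, while ACA5 fell by 2.51 at 40 °C and by 2.02 at 25 °C. ACA7 passed the filter only through its 6 arrays at 4H, so its place in the tests hung on the groups where it was high. None of the 8 genes passed the test at 0H by limma, where 17.7% of all probe sets did, and 3 had an unadjusted p under 0.05.

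Calcineurin B-like proteins (CBL) are calcium sensors that act on a class of protein kinases. Of 6 tested, 3 rose and 2 fell at 4H after 40 °C, against the same 30.5% and 43.5% of all probe sets (median 0.32, of all probe sets −0.16). CBL2 rose by 0.77 (SE 0.09, adjusted p = 1.79e-06) and CBL3 fell by 0.61 (SE 0.08, adjusted p = 7.06e-06). At 0H CBL10 rose by 0.54 (SE 0.14, adjusted p = 0.0134), and it lost the call without replicate 1 or 3 of the 40 °C 0H group (adjusted p = 0.0546 and 0.0509). At 4H relative to 0H 4 CBL genes rose and 1 fell at each temperature, where 41.0% of all probe sets rose and 46.3% fell at 40 °C, and 39.9% rose and 42.0% fell at 25 °C. CBL9 and CBL4 were among the rises at both temperatures. CBL9 passed the filter only through its 6 arrays at 4H, and CBL4 with 7 arrays, mainly those at 4H. Their rises were thus favoured by the filter. CBL9 rose by at least 1.54 at 40 °C and at least 0.49 at 25 °C, and CBL6 fell by 1.41 at 40 °C and by 1.16 at 25 °C.

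Both listed calcium-permeable channel genes were lower at 4H than at 0H, as were 46.3% of all probe sets at 40 °C and 42.0% at 25 °C. OsTPC1 passed the filter only through its 6 arrays at 0H, where it was high. Its fall was thus favoured by the filter and does not bear on that share. GLR3.1, a glutamate receptor-like channel gene, fell by 0.88 at 4H relative to 0H at 40 °C (SE 0.12, adjusted p = 4.50e-06). At 25 °C it fell by 0.32 (adjusted p = 0.0220), a call that ended in 5 of 19 alternatives. GLR3.1 was also 0.52 lower at 40 °C than at 25 °C at 4H (SE 0.12, adjusted p = 0.00110). OsTPC1, a voltage-gated channel gene, fell at 4H by at least 0.94 at 40 °C and at least 1.14 at 25 °C, and its 4H means of 2.44 at 40 °C and 3.20 at 25 °C were both under log2 4. CCaMK, a kinase that binds calcium and calmodulin, rose at 4H by 0.75 at 40 °C (SE 0.07, adjusted p = 7.98e-08) and by 0.78 at 25 °C (SE 0.07, adjusted p = 8.10e-08), with differences of 0.15 at 4H and 0.17 at 0H between the temperatures that did not pass the test.

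For each of the 3 genes the 3 most similar probe sets were sought by the root mean square difference over the 12 arrays, after each probe set was centred on its own mean, among 1964 named candidates. Nearest to CML15 were MAPK6, a mitogen-activated protein kinase gene, at log2 0.23, and both probe sets of OsSAP5, a stress-associated zinc finger gene, at 0.24 and 0.26; the median candidate was at 1.22. Nearest to CML27 were OsSAP16 at 0.26, the argonaute gene AGO2 at 0.33 and the transporter gene HAK1 at 0.34, with a median of 1.51. Nearest to CML31 were OsSAP17 at 0.41, the protein kinase gene NEK1 at 0.47 and the response regulator gene OsRR6 at 0.49, with a median of 2.85. The 3 sets shared no gene. OsSAP17 averaged 9.84 at 40 °C 4H, 7.14 at 25 °C 4H, 3.68 at 40 °C 0H and 3.49 at 25 °C 0H, with 5 of its 6 arrays at 0H under log2 4. In replicate 3 of the 25 °C 4H group OsSAP17 read 7.73 against 6.83 and 6.87, and CML15, CML27 and CML31 were highest of their group in the same array.

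**Figure D4:**
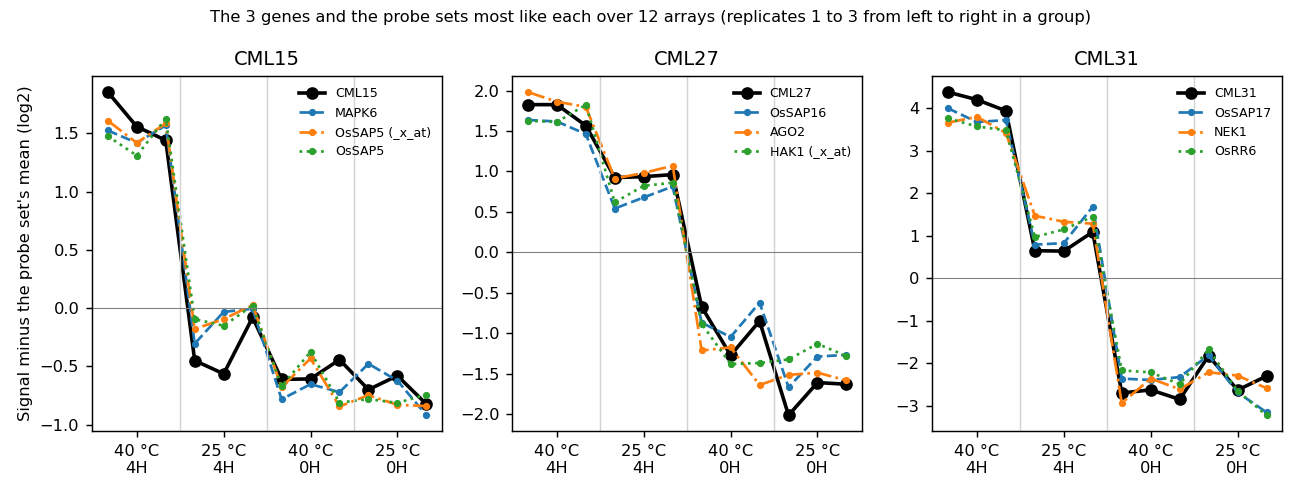
Signal minus the mean of each probe set (log2) in the 12 arrays for CML15, CML27 and CML31 (thick line) and the 3 most similar probe sets of each; lines join arrays only to guide the eye, and the scale differs between panels. In each panel every line is highest in the 40 °C 4H arrays, and in all of them but CML15 itself the 25 °C 4H arrays also lie above every 0H array.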

How the data were processed

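Axes of 4 groups (3 arrays each) were read from 12 Affymetrix Rice Genome Arrays, grouped by title. The deposited values are log2 signals; the authors used GCRMA, per the submitters' processing notes, with no version or genome build given in the sources used here. That the scale is base 2 was judged from the range of the values. Of 57381 probe sets 123 controls were left out, and those above log2 4 in at least 3 arrays were kept (17650). Of all probe sets 22436 were paired with 1 gene, 95 with several and 34850 were unlisted; names and the order of genes along a chromosome came from RefSeq's table of ASM3414082v1, none of whose coordinates is given. Differences were fitted with limma 3.58.1 in R 4.3.3 (lmFit on 4 group means, eBayes with trend, 8 residual degrees of freedom, two-sided, Benjamini-Hochberg over all 17650 probe sets, threshold 0.05), and the fit was tested on simulated data. Python 3.11.15 drew the figures. A gene was read from its probe set with the highest mean. Where all arrays of a group lay under log2 4, sizes are counted from that limit.

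The genes, lists and tests were chosen with earlier results of these data known. The rule named per comparison up to 4 called family genes and up to 2 of each other calcium list by the lowest p, and the 3 most similar probe sets. Marker symbols with no match in the name table were not used, nor was GLB1, whose rice locus may be an endosperm globulin; OLE18, GLUB2 and RAmy3B had no probe set. Endosperm genes included GBSS1, RA14 and PROLM25, whose rise at 0H was already known. Of the 8 endosperm genes tested at 0H 4 rose by limma, where 5.99% of all probe sets did, and none of the 4 amylase or 2 embryo genes did (3 and 1 at an unadjusted p under 0.05). The 4 were the genes just named and SSII-3, which passed the filter only through its 3 arrays at 40 °C 0H. The count therefore repeats the choice and the filter. Deviations of same-numbered replicates correlated at 0.23, 0.13 and 0.42 for 4H with 0H at 25 °C, all above 0.1. Replicates 1 and 2 also correlated across numbers there, at 0.19 and 0.205, so these values do not single out numbers 1 and 2 as pairs. Replicate 3 of either group correlated with the other numbers of the other group at −0.34 to −0.22. It also had the highest endosperm sum in both 25 °C groups, 10.9 at 0H and 11.4 at 4H. The part of this in the unpaired fit was not tested apart from the block. No label states a pairing. The fit above took no pairs, and the replicate block was an alternative. In the other comparisons at least 1 same-numbered value lay under 0.1.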

Additional observations from a re-analysis of the deposited data

Results flagged for a closer look

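The effect of temperature differed between 4H and 0H, by the interaction term of the limma fit, in more listed genes than are given here. Of the 14 tested family genes that did not enter the choice of CML15, CML27 and CML31, 6 shifted upward and 5 downward. Given here are 9 genes outside that choice, those with the lowest p, up to 4 of the family and up to 2 of each other list. Of these, 4 are of the calmodulin family: the temperature difference at 4H exceeded that at 0H by 1.73 (log2) in CML14, and lay below it by −1.06 in CAM3, −0.72 in CML7 and −0.68 in CML13. The others transport or sense calcium. ACA7 differed by 2.52 in the signals as deposited, and by 2.36 with values under log2 4, which all its 0H arrays were, set to 4. CBL2 differed by 0.84 (SE 0.12, adjusted p = 3.92e-05). ACA5 differed by −0.49 (SE 0.12, adjusted p = 0.00228), CBL3 by −0.68 (SE 0.11, adjusted p = 0.000113) and GLR3.1 by −0.57 (SE 0.17, adjusted p = 0.00803). Of all probe sets 65.0% passed this test. Groups of 3 arrays were too small for the search for single outlying arrays.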

How the results depend on the processing

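The number of arrays limits what could be resolved. The differences of CML15, CML27 and CML31 moved by less than the SD between replicates in 107 of 117 alternatives and in all 180 with 1 array left out. Many of these settings could not move a difference of group means, so the counts say little about stability. The filters, the fit without trend, the replicate block and the fit to the compared groups alone leave it unchanged. So does leaving out an array of a group outside the comparison. Averaging over probe sets can change CML27 alone, and the floor at log2 4 cannot change CML15. With values under log2 4 set to 4, CML27 differed by 0.28 between temperatures at 0H, by 2.13 between 4H and 0H at 25 °C and by 0.51 in the interaction. CML31 then differed by 0.00 at 0H, 4.75 between 4H and 0H at 40 °C, 1.37 at 25 °C and 3.38 in the interaction. With the mean of both its probe sets CML27 differed by 0.55 between temperatures at 4H, and by 1.46 and 1.51 between 4H and 0H at 40 °C and 25 °C. Under quantile normalization each of their differences moved by less than that SD, and the interaction of CML27, which is near 0, was 0.02 in place of −0.02. With the replicate block 1 of the 14 other family genes was called at 0H (0 without it), as without replicate 3 of the 25 °C 4H group; no other count of calls moved by over 1.5 times and no named call was lost under the block. The count of all probe sets called at 0H, 3129, was 2079 without replicate 2 at 40 °C and 2080 without replicate 2 at 25 °C (range 2079 to 3847). With the filter at log2 6, which tests 11081 probe sets, the counts for 4H with 0H were 10045 at 40 °C and 9525 at 25 °C, against 15396 and 14457. The call of OsTPC1 between the temperatures at 4H ended with values under log2 4 set to 4, and that of GLR3.1 at 25 °C without the filter (adjusted p = 0.0530) and without replicate 1 or 3 of either 25 °C group (0.0518 to 0.0888, range over all alternatives 0.00507 to 0.0888).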
